A study of Homo sapiens with 8 samples.

Results

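The D cyclins, the kinases CDK4 and CDK6, their inhibitors and the retinoblastoma gene RB1 were followed as 10 named genes of the 25192 gene symbols in each deposited file. The 10 genes were CCND1, CCND2, CCND3, CDK4, CDK6, CDKN1B, CDKN1C, CDKN2B, CDKN2C and RB1, and every one of them had a row in all 8 files. The set was chosen by the lower CCND1 level under PrxII knockdown in both cell lines (CCND1 is a β-catenin target), so the CCND1 values under knockdown are described without a test. The other 9 genes belong to it by gene family.

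The study asked how peroxiredoxin II (PrxII, gene PRDX2), an enzyme that removes hydrogen peroxide, affects β-catenin signalling in colorectal cancer cells. HT29 and SW480 are human colorectal cancer lines that carry truncated APC, so β-catenin is stabilised in both, and both were kept in 10% fetal bovine serum. HT29 cells grew in McCoy's 5A and SW480 cells in RPMI1840, so that line and medium cannot be told apart. Each line was transfected with a control siRNA (siCon) or an siRNA against PRDX2 (siPrdx2), and messenger RNA was sequenced after 36 h in 2 libraries per group, 4 groups in all. The study describes the HT29 libraries as duplicate experiments, and its control siRNA targeted firefly luciferase. The labels do not say which PRDX2 siRNA sequence was used or whether the SW480 duplicates were separate transfections, so p-values there measure only the spread between these libraries, which may be technical.

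D cyclins bind and activate CDK4 and CDK6, and the active complexes phosphorylate the retinoblastoma protein and relieve its repression of E2F target genes at the entry into S phase. The INK4 inhibitors, encoded by CDKN2B and CDKN2C here, bind CDK4 and CDK6 directly, whereas the CIP/KIP inhibitors encoded by CDKN1B and CDKN1C bind cyclin and kinase together and chiefly restrain CDK2. In intestinal epithelium, WNT signalling through β-catenin and TCF factors is known for raising cyclin D1.

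The promoters of CDKN2B and CDK6 are shown because these were the members that rose in HT29 cells. The sequences come from the RefSeq promoter table for GRCh38.p14, which held 7 of the 10 members, and each was placed on GRCh37 by a single exact match. They run from 250 bases before to 50 after the annotated start, 5′ to 3′ on the gene's strand, and capitals mark the GC box GGGCGG on either strand.
CDKN2B, GRCh37 chr9:22009255-22009554, minus strand: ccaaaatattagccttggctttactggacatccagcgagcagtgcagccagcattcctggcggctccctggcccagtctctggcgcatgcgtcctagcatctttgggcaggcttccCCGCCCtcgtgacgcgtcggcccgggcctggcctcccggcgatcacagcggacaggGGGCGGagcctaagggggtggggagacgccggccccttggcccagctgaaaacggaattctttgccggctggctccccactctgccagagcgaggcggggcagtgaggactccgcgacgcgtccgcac
CDK6, GRCh37 chr7:92465838-92466137, minus strand: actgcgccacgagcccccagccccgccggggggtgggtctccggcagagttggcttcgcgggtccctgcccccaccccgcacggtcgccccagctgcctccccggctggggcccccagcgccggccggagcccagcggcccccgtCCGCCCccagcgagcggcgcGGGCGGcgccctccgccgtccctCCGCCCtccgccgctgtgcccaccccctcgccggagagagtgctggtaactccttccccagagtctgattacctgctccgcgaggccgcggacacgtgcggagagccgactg
The 7 members had 12 windows in the table, 1 for each listed start. The CDKN2B window held 2 GC boxes and the CDK6 window shown, the more upstream of its 2, held 3, while the other CDK6 window held none. In all, 8 of the 12 windows held at least 1. Over all 35116 promoters of the table, 45.0% held at least 1. The TCF motif CTTTGAT was in none of the 12 windows and in 2.62% of all promoters. The E-box CACGTG, a palindrome counted once per position, was in 4 of the 12 windows, 3 times in that of CDK4 and once each in the upstream CDK6 window and in 2 of the 3 CDKN2C windows, and 7.26% of all promoters held it. The E2F motif TTTGGCG was absent from these windows and present in 1.92% of promoters. Each motif was searched on both strands, and a match is a string of letters, not a bound site. CCND1, CCND2 and CDKN1C were not in the table.

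Library totals ran from 8857442 to 10164137 expected counts. Levels are given as counts scaled to normalised library size (CPM), on which 3 counts are worth 0.293 to 0.335 CPM, counting error only. PRDX2 had 153 and 159 CPM in HT29 control libraries and 85.3 and 86.0 CPM with siPrdx2. In SW480 cells it had 202 and 238 CPM with siCon and 67.2 and 68.3 CPM with siPrdx2. Its log2 fold change was -0.87 in HT29 (edgeR quasi-likelihood test with Benjamini-Hochberg adjustment, adjusted p = 1.15e-09) and -1.70 in SW480 (adjusted p = 0.000618), and the 2 effects differed by 0.84 (adjusted p = 0.0128). The SW480 control duplicates stood apart from the other pairs. Their chi-square per degree of freedom over genes was 11.2, against 1.43 to 2.13 in the other groups, and the difference between them followed gene GC content (Spearman's rho 0.73 across genes, against 0.14 to 0.20). Epithelial markers EPCAM, KRT8, KRT18, KRT19 and VIL1 were present in both lines. In SW480 cells CEACAM5 reached 0.070 TPM (a level scaled for transcript length) at most, and KRT20 lay between 0.79 and 1.34 TPM. CDH1 ran from 11.98 to 14.71 TPM there, against 253 to 270 TPM in HT29 cells. CDX1 was at 0.14 to 0.28 TPM in SW480 and 1.40 to 2.55 TPM in HT29 cells. CDX2 was higher in SW480 cells, at 18.82 to 31.47 TPM against 8.23 to 13.67 TPM in HT29. Of 8 markers of blood, endothelial and stromal cells, 7 had a value above 0 in some library, with PTPRC at 0 in all 8 libraries. Their summed level was 3.18 to 4.68 TPM in HT29 and 19.9 to 30.7 TPM in SW480 cells. In SW480 most of that sum was ACTA2 (11.7 to 22.5 TPM) and COL1A1 (7.35 to 9.33 TPM). There CD3E, CD79A, PECAM1, COL1A2 and COL3A1 were each at 0.64 TPM or less. Fewer cells of a kind and less RNA per cell cannot be told apart in such bulk libraries.

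**Figure D1:**
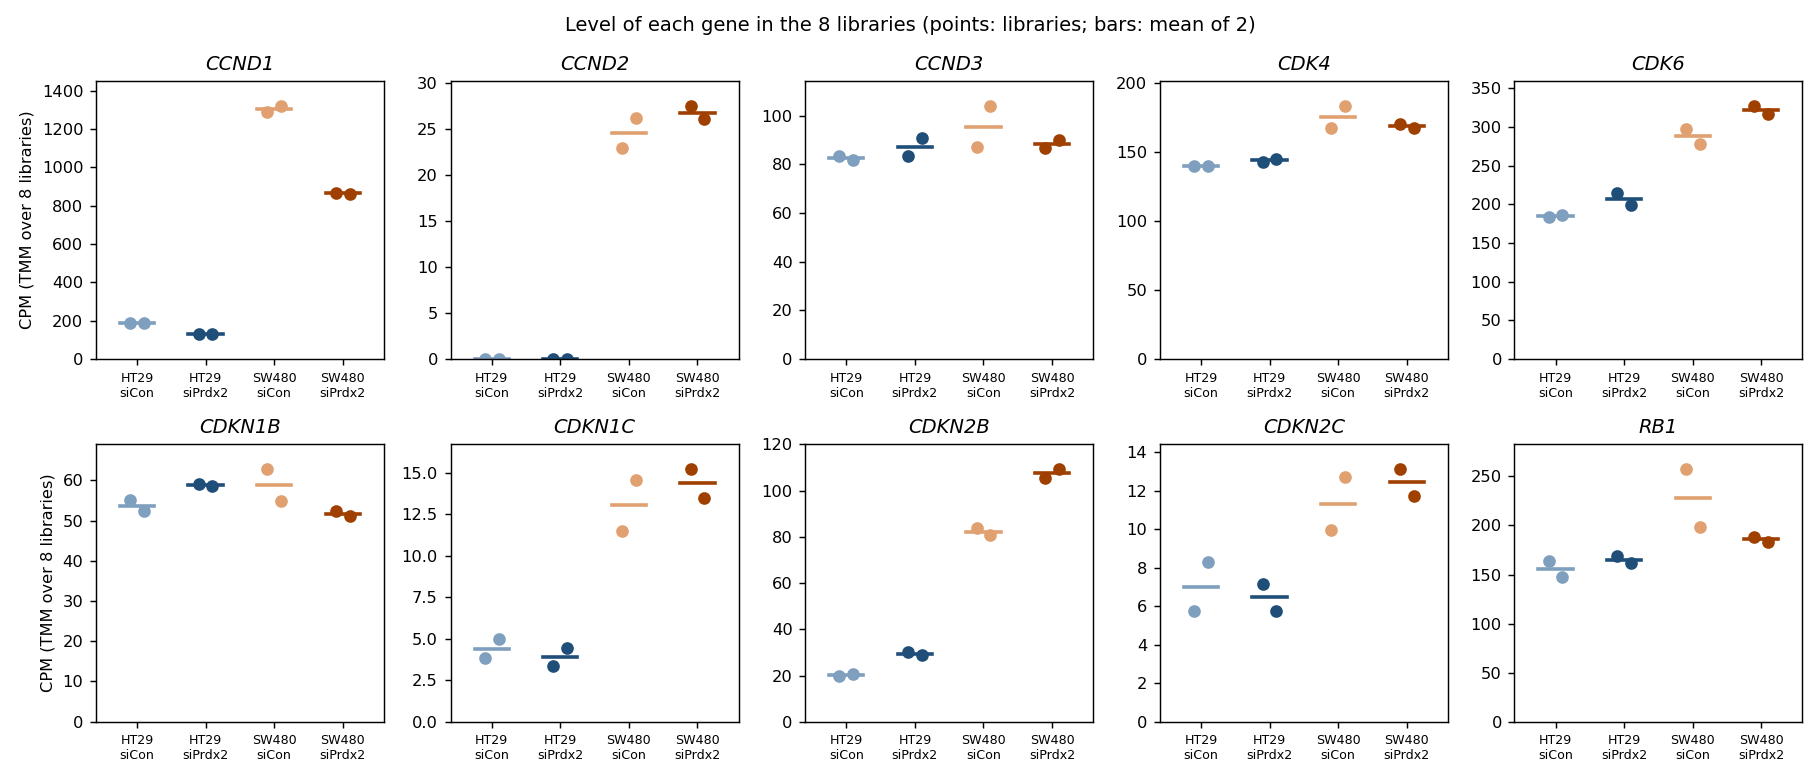
Level of the 10 genes in CPM (linear axes from 0, own scale per gene), with points for the 2 libraries of each group and bars for their mean. CCND1 was near 187 CPM in HT29 and near 1302 CPM in SW480 control libraries, CCND2 was at 0 in all HT29 libraries, and CDKN2B was higher with siPrdx2 than with siCon in all libraries of both lines.

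Among the D cyclins, CCND1 stood out by its level in SW480 cells and by its lower level with siPrdx2, and CCND2 by having no counts in HT29 cells. CCND1 encodes cyclin D1. With siCon in HT29 cells it reached 186.4 and 186.7 CPM, and it was at 132.0 and 128.5 CPM with siPrdx2. In SW480 cells it was at 1286 and 1318 CPM with siCon and at 867.4 and 861.9 CPM with siPrdx2. Both siPrdx2 libraries lay below both controls in each line, by a mean of -30.2% in HT29 and -33.6% in SW480. The log2 fold changes were -0.52 and -0.59, given without a test because they chose the set, and their difference between the lines was 0.07. With any 1 library left out the log2 fold lay between -0.54 and -0.50 in HT29 and between -0.61 and -0.58 in SW480.

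CCND2, which encodes cyclin D2, had 0 counts in all 4 HT29 libraries, which allows up to 0.303 to 0.326 CPM per library (3 counts, on the normalised scale). In SW480 cells it was at 22.9 and 26.2 CPM with siCon and at 27.4 and 26.1 CPM with siPrdx2. The SW480 ranges overlapped, and the log2 fold change was 0.12 with a 95% interval of -0.20 to 0.44 (edgeR, adjusted p = 0.62). No knockdown effect can be given for HT29, and the difference between the lines was therefore not tested. CCND3, which encodes cyclin D3, was nearly level. It was at 83.6 and 81.7 CPM with siCon and 83.3 and 90.7 CPM with siPrdx2 in HT29 cells, and at 87.2 and 103.9 against 86.7 and 90.0 CPM in SW480 cells. Groups overlapped in both lines, with log2 fold changes of 0.07 (-0.05 to 0.19, adjusted p = 0.444) and -0.11 (-0.39 to 0.16, adjusted p = 0.586) in edgeR.

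Levels between genes were compared in TPM, which accounts for transcript length. CCND1 and CCND3 were close to each other in HT29 control libraries, at 90.9 and 91.1 TPM for CCND1 against 87.1 and 85.0 TPM for CCND3. With siPrdx2 the order was turned, with CCND1 at 67.3 and 65.3 TPM and CCND3 at 91.2 and 98.3 TPM. The CCND1 share of the summed D cyclin TPM went from 51.1% and 51.7% to 42.5% and 39.9%. In SW480 cells CCND1 led in every library, and its share went from 86.5% and 84.7% to 81.0% and 80.5%. The D cyclin sum went from 177 ± 1.37 TPM (SD, n = 2) to 161 ± 3.59 TPM in HT29 and from 808 ± 21.1 TPM to 606 ± 0.297 TPM in SW480 cells. These sums are descriptions, since CCND1 makes up most of the change. TPM also moved at large: the median change in log2(TPM + 1) over all genes tested was 0.06 in HT29 and 0.09 in SW480.

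**Figure D2:**
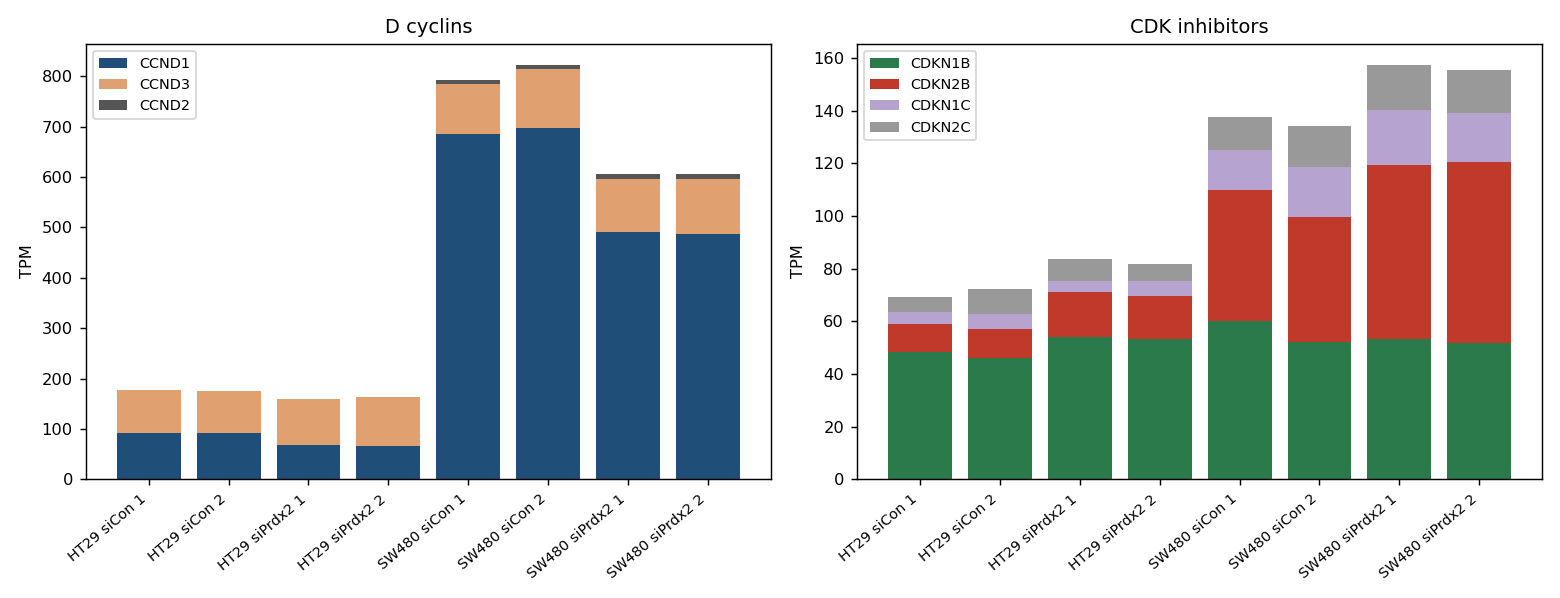
Summed TPM of the D cyclins (left) and of the 4 CDK inhibitors of the set (right) in the 8 libraries, stacked by gene from 0. The D cyclin bars were lower with siPrdx2 in both lines (177 to 161 TPM and 808 to 606 TPM) and the inhibitor bars higher (70.8 to 82.8 TPM and 136 to 156 TPM). Over all genes tested, the median change in log2(TPM + 1) with siPrdx2 was itself 0.06 in HT29 and 0.09 in SW480.

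Of the kinases, CDK6 rose in HT29 cells by a small amount and CDK4 did not pass the test in either line. CDK6 was at 183.2 and 186.2 CPM with siCon and at 214.6 and 199.2 CPM with siPrdx2 in HT29 cells. Both siPrdx2 libraries lay above both controls, and the log2 fold change was 0.16 ± 0.04 (SE, edgeR, adjusted p = 0.0147). The call was lost with DESeq2 (adjusted p = 0.0874), limma on log2(TPM + 1) (0.0612), all 8 libraries in 1 fit (0.361) and without siPrdx2 replicate 1 (0.162, at a log2 fold of 0.11). In SW480 cells CDK6 was at 297.7 and 277.9 CPM with siCon and at 326.7 and 316.2 CPM with siPrdx2. The siPrdx2 libraries were again above the controls, with the same fitted size (0.16, interval -0.07 to 0.38, adjusted p = 0.348) but a wider spread. With a GC offset the log2 fold was 0.35 in SW480 (adjusted p = 0.00342). With any 1 library left out it lay between 0.10 and 0.21. CDK6 was not called there with RLE scaling, no filter, a replicate block, DESeq2, limma or all 8 libraries in 1 fit.

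CDK4 was at 139.6 and 139.9 CPM with siCon and at 142.7 and 145.3 CPM with siPrdx2 in HT29. The log2 fold change there was 0.04 (-0.05 to 0.13, edgeR, adjusted p = 0.597). In SW480 cells it was at 167.4 and 183.2 CPM against 170.3 and 167.4 CPM, a log2 fold change of -0.05 (-0.30 to 0.19, adjusted p = 0.783). On log2(TPM + 1) its change was 0.04, below the median of 0.09 over all genes on that scale. By TPM, CDK4 was the more abundant kinase in every library, with 75.7% to 81.9% of the CDK4 and CDK6 sum. CDK4 overlaps TSPAN31 on the opposite strand, and the library kit does not mark strand, so reads of the overlap cannot be told apart. TSPAN31 was at 34.7 to 48.2 CPM.

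**Figure D3:**
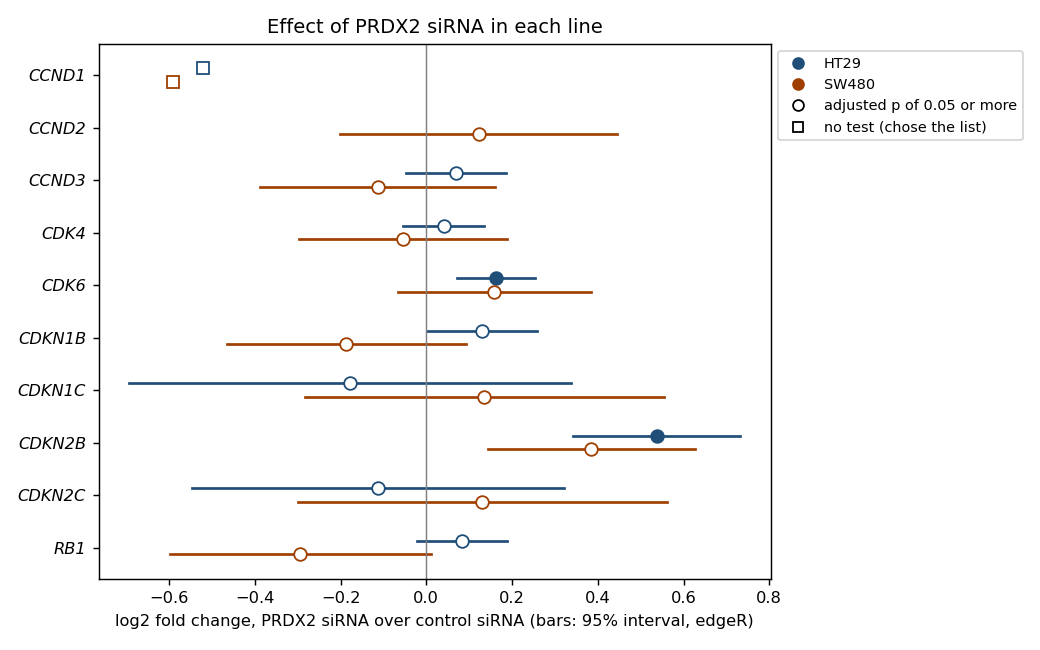
Log2 fold change of each gene with siPrdx2 over siCon in HT29 (blue) and SW480 (brown), with 95% intervals from edgeR. Filled points passed an adjusted p of 0.05 and squares (CCND1) have no test. CDKN2B and CDK6 were the called genes, both in HT29, and the SW480 intervals were wider for all but CDKN1C and CDKN2C.

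Among the inhibitors, CDKN2B rose in HT29 cells, and the remaining members did not pass the test in either line. CDKN2B encodes p15INK4b, an inhibitor known to be induced by TGF-β. In HT29 cells it was at 19.9 and 20.7 CPM with siCon and at 30.2 and 28.8 CPM with siPrdx2. Both siPrdx2 libraries were above both controls, a mean of 45.3% higher, and the log2 fold change was 0.54 ± 0.09 (SE, edgeR, adjusted p = 0.000526). It kept its call in all 13 alternatives, with adjusted p between 9.75e-05 and 0.0493. In SW480 cells it was at 83.8 and 80.7 CPM with siCon and at 105.5 and 109.4 CPM with siPrdx2. The groups did not overlap there either, and the mean was 30.6% higher. The log2 fold change of 0.38 had an interval of 0.14 to 0.63 and did not pass the adjustment (adjusted p = 0.0832). It passed with a GC offset (0.50, adjusted p = 0.000303) and with all 8 libraries in 1 fit (adjusted p = 0.00918). It did not pass with RLE scaling, no filter, a replicate block, DESeq2 or any limma fit. With any 1 library left out the log2 fold lay between 0.35 and 0.41. In a fit without 1 control the spread comes from the siPrdx2 pair alone, and the single control is assumed to vary like it. The effect did not differ detectably between the lines (0.15, interval -0.12 to 0.43, adjusted p = 0.518). CDKN2B overlaps the antisense RNA gene CDKN2B-AS1, which was at 1.90 to 2.97 CPM in the 8 libraries.

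CDKN2C encodes p18INK4c, the other INK4 gene among the 10 genes of the set. It was at 5.72 and 8.29 CPM with siCon and 7.17 and 5.76 CPM with siPrdx2 in HT29 cells, and at 9.95 and 12.7 against 13.1 and 11.7 CPM in SW480 cells. Its ranges overlapped in both lines. The log2 fold changes were -0.11 (-0.55 to 0.32) and 0.13 (-0.30 to 0.56), with adjusted p = 0.771 and 0.698 in edgeR, and at 53 to 132 counts per library smaller effects were not detectable.

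CDKN1B, which encodes p27Kip1, went in opposite directions in the 2 lines, short of the threshold in each. In HT29 cells it was at 55.0 and 52.4 CPM with siCon and at 59.2 and 58.6 CPM with siPrdx2. In SW480 cells it was at 62.8 and 54.9 CPM with siCon and at 52.4 and 51.0 CPM with siPrdx2. The siPrdx2 libraries thus lay above both controls in HT29 and below both in SW480. The log2 fold changes were 0.13 (0.00 to 0.26, adjusted p = 0.164) and -0.19 (-0.47 to 0.09, adjusted p = 0.372) in edgeR. Their difference was 0.32 (0.03 to 0.60, adjusted p = 0.218). The overlapping gene GPR19, on the opposite strand, was at 1.74 to 3.80 CPM. CDKN1C, which encodes p57Kip2 and is imprinted, was low. It was at 3.82 and 4.95 CPM against 3.33 and 4.46 CPM in HT29, and at 11.5 and 14.6 CPM against 15.2 and 13.5 CPM in SW480. Ranges overlapped in both lines, and the log2 fold changes were -0.18 (-0.69 to 0.34, adjusted p = 0.684) and 0.14 (-0.28 to 0.55, adjusted p = 0.678).

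In TPM, CDKN1B was the most abundant of the 4 inhibitor genes of the set in HT29, at 63.6% to 69.5% of their sum. In SW480 cells CDKN2B came close to it with siCon, at 49.7 and 47.5 TPM against 60.2 and 52.2 TPM for CDKN1B. With siPrdx2 CDKN2B lay above CDKN1B, at 66.2 and 68.6 TPM against 53.2 and 51.8 TPM. The CDKN2B share of inhibitor TPM went from 15.6% and 15.4% to 20.4% and 19.9% in HT29, and from 36.1% and 35.4% to 42.0% and 44.2% in SW480. D cyclin TPM per inhibitor TPM was 2.57 and 2.44 with siCon and 1.89 and 1.997 with siPrdx2 in HT29. In SW480 it was 5.77 and 6.13 with siCon and 3.85 and 3.90 with siPrdx2. These ratios carry CCND1 and are a description.

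RB1 encodes the retinoblastoma protein, the substrate of the CDK4 and CDK6 complexes. In HT29 cells it was at 163.5 and 148.0 CPM with siCon and at 168.4 and 161.9 CPM with siPrdx2. The groups overlapped, with a log2 fold change of 0.08 (-0.02 to 0.19, edgeR, adjusted p = 0.283). In SW480 cells the controls were far apart, at 257.5 and 198.2 CPM, and the siPrdx2 libraries were at 188.7 and 183.2 CPM, below both. The log2 fold change was -0.29 (-0.60 to 0.01, adjusted p = 0.217). It depended on the control library used. Without control replicate 2 it was -0.48 (adjusted p = 2.72e-09), without control replicate 1 it was -0.09, and with the GC offset it was -0.05. The difference between the lines was 0.38 (0.04 to 0.72, adjusted p = 0.218), and 0.54 without SW480 control replicate 2 (adjusted p = 1.37e-05).

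The SW480 control duplicates differed among these genes along GC content. RB1, with a transcript GC content of 37.1%, was lower in replicate 2 than in replicate 1 by 0.38 on the log2 scale. CDKN1C, at 62.9% GC, was higher by 0.34, and CCND3, at 59.1% GC, by 0.25. In all, 6 of the 10 genes were higher and 4 lower in replicate 2, and those lower were RB1, CDK6, CDKN2B and CDKN1B, all with at most the 45.9% GC of CDKN1B. CCND2, at 45.6% GC, was higher by 0.19. CCND3 shows how the choice of control library bore on the fold change. Its SW480 log2 fold was -0.24 without control replicate 1 (adjusted p = 0.000783), 0.01 without replicate 2 and -0.29 with the GC offset (adjusted p = 0.00603). With any 1 library left out, CDKN1B had an SW480 log2 fold between -0.29 and -0.09, and -0.29 was the fit without control replicate 2.

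**Figure D4:**
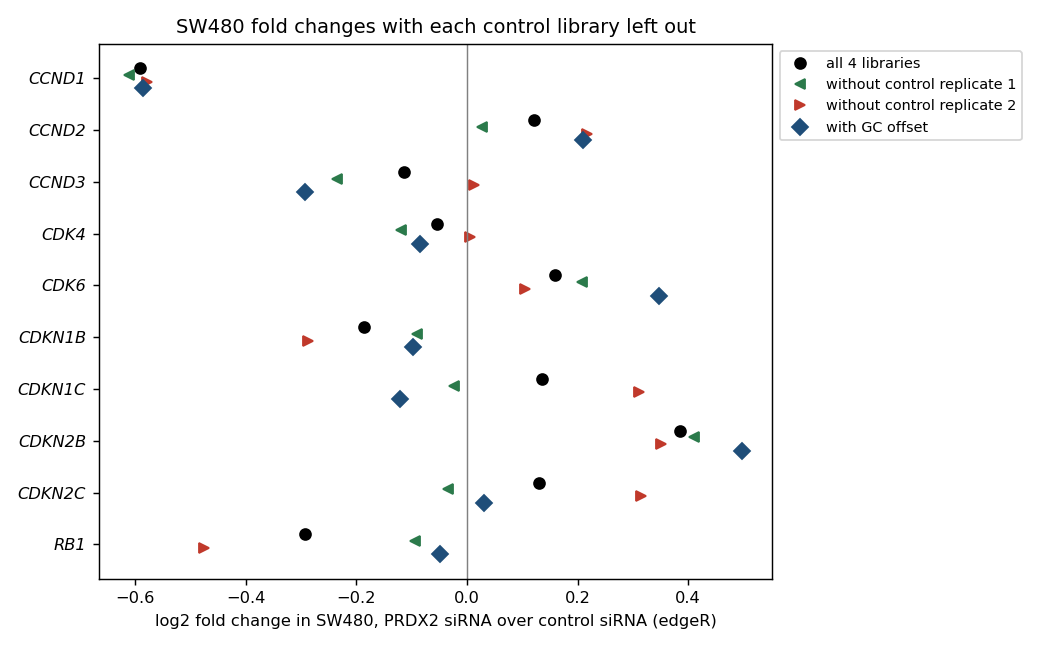
SW480 log2 fold changes with all 4 libraries (circles), without 1 control library (triangles) and with the GC offset (diamonds). CCND1 runs from -0.61 to -0.58, CDKN2B from 0.35 to 0.50 and RB1 from -0.48 to -0.05.

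By counts, 9 of the 10 members passed the filter of at least 10 counts in at least 2 libraries in HT29, all but CCND2, and 10 did in SW480. Of the 8 tested in HT29, 2 were higher and none lower, against 7.76% of all 12961 genes higher and 9.82% lower (17.6% called in either direction). Their median log2 fold change was 0.08, against 0.00 over all genes. In SW480, none of the 9 tested members was called in edgeR, against 3.3% of 14112 genes (1.22% higher and 2.08% lower), and none was with DESeq2 or limma. At an unadjusted p under 0.05 there was 1, CDKN2B, against 24.4% of all genes. Their median was 0.12, against 0.00 over all genes. For the difference between the lines, none of 8 members was called, against 1.12% of 14772 genes (0.616% higher and 0.508% lower), and 2, CDKN1B and RB1, had an unadjusted p under 0.05, against 19.2% of all genes. DESeq2 and limma called none there either. Of all genes called, 44.1% were higher in HT29 and 36.9% in SW480, but 69.6% and 59.0% with limma on log2(TPM + 1), 48.5% with the GC offset in SW480.

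The control libraries of the 2 lines were also compared, to place the levels from which the knockdown started. The comparison shares its control libraries with the knockdown contrasts, so no relation between them is drawn. CCND2 passed the count filter through SW480 alone and is left out of the count. Of the other 9 members, 7 were higher in SW480 and none lower, against 35.7% of 14346 genes higher and 31.8% lower (67.5% in either direction). Their median log2 fold was 0.64, against 0.04 over all genes, and limma on log2(TPM + 1) or a GC offset moved that background to 0.14 or -0.16. CCND1 was higher by 2.80 ± 0.09 (SE, edgeR, adjusted p = 7.03e-08) and CCND2 at least 76.0-fold, taking 3 counts per HT29 library as the floor. CDKN2B was higher by 2.01 ± 0.12 (adjusted p = 1.82e-06) and CDKN1C by 1.57 ± 0.23 (adjusted p = 0.000349). Smaller differences were called for CDK6 (0.64, adjusted p = 0.000461), RB1 (0.55, adjusted p = 0.00744), CDKN2C (0.69, adjusted p = 0.0303) and CDK4 (0.32, adjusted p = 0.0222). CCND3 (0.21, -0.07 to 0.48, adjusted p = 0.167) and CDKN1B (0.13, -0.16 to 0.41, adjusted p = 0.387) did not pass. The CDK4 call was lost with the GC offset (0.05, adjusted p = 0.435) and without either HT29 control library (adjusted p = 0.35 and 0.34). That of CDKN2C was lost with the GC offset (adjusted p = 0.0605), with DESeq2 (0.0689) and without HT29 control replicate 1 (0.33), and that of RB1 without HT29 control replicate 2 (0.131). CCND3 was called at 0.41 without SW480 control replicate 1 (adjusted p = 7.98e-06) and at no other setting. CDKN1B turned to -0.12 with the GC offset and was called at 0.29 without SW480 control replicate 2 (adjusted p = 0.00191). CCND2 passed the filter only through the line where it is high, so its call carries no weight. With CCND2 counted, 8 members were called in edgeR and 6 with the GC offset. There were 7 with DESeq2 and 7 with limma on log2(TPM + 1) without a filter. Of all genes called, 52.9% were higher in SW480, and 42.0% with the GC offset.

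**Figure D5:**
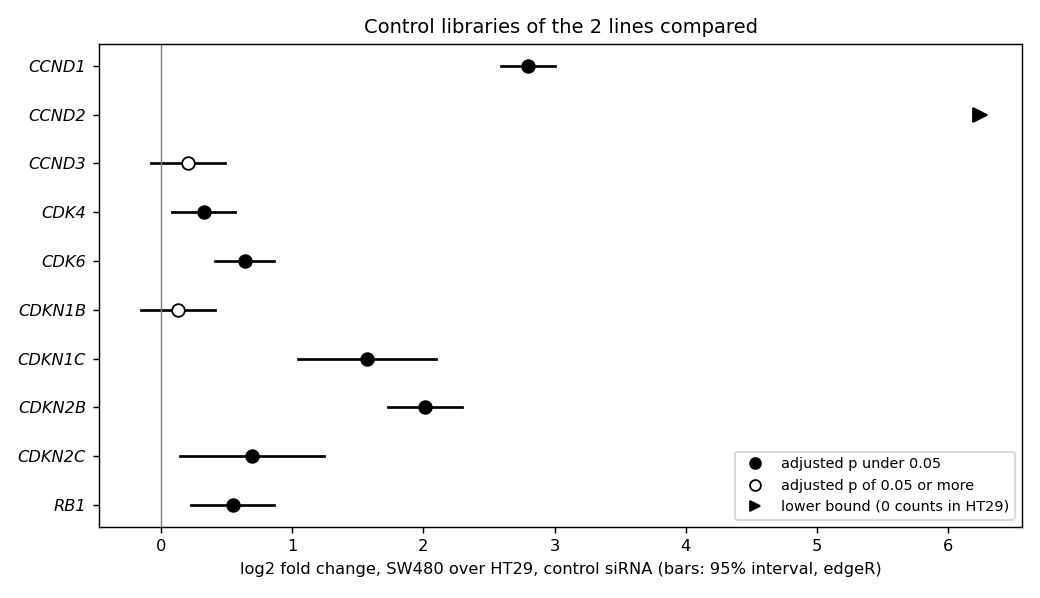
Log2 fold change of each gene in SW480 over HT29 control libraries, with 95% intervals from edgeR. Filled points passed an adjusted p of 0.05, and the triangle for CCND2 is a lower bound (0 counts in HT29). CCND1 (2.80) and CDKN2B (2.01) differed most among the genes with a fitted value.

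In order of TPM, CDK4 led in HT29 at 148 TPM with siCon, and was followed by CCND1 (91.0), CCND3 (86.1), RB1 (68.2), CDKN1B (47.0), CDK6 (32.9) and CDKN2B (10.97), with CDKN2C (7.58) and CDKN1C (5.18) not separated from each other. In SW480 control libraries CCND1 led at 692 TPM, then CDK4 at 203 TPM. RB1 (109) and CCND3 (108) were not separated there, nor were CDKN1B (56.2) and CDK6 (55.7), nor CDKN1C (16.9) and CDKN2C (14.2), and CCND2 came last at 8.54 TPM. RSEM weights the length of a gene by its transcripts, and that length hardly moved for CCND3 (2027 to 2040 bases), CDK6 (11625 to 11698), CDKN2B (3861 to 3887) and CDKN1C (1775 to 1807). CDKN2C ranged from 1766 to 2087 bases, on 53 to 132 counts. The other 5 members have 1 transcript each in the authors' annotation.

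Other genes of the pathway were read from 5 lists of 48 genes. In HT29, 7.76% of all 12961 genes tested were called higher and 9.82% lower. At an unadjusted p under 0.05 in edgeR there were 28 of the 48 (58.3%), against 30.2% of all genes. The lists were chosen with earlier results of these data known, so these shares are a description. Of 6 genes around cyclin E and CDK2, CCNE1, an activator of CDK2, rose in HT29 by 0.35 (adjusted p = 0.0346) and CCNA2, the cyclin of S phase, fell by 0.31 (adjusted p = 0.00119). Of 12 pocket proteins, E2F and DP factors, 4 rose and 1 fell. E2F1 rose by 0.30 (adjusted p = 0.00459) and E2F2 by 0.49 (adjusted p = 0.00896), both activators of S phase genes, TFDP2 by 0.26 (adjusted p = 0.00985), and TFDP1, an E2F partner, fell by 0.18 (adjusted p = 0.000194). Of 14 E2F target genes of DNA synthesis, 7 rose and none fell, with a median log2 fold of 0.11 against 0.00 over all genes. They included MCM7 (0.16, adjusted p = 0.000519), CDC6 (0.28, adjusted p = 0.00123), RRM2 (0.21, adjusted p = 0.0016) and PCNA (0.16, adjusted p = 0.00239). DESeq2 called 4 of these 14, among 871 genes called in all, and the fit of all 8 libraries none, among 185. Of 5 genes for the CDK-activating kinase and the chaperone of CDK4 and CDK6, CDK7 rose by 0.23 (adjusted p = 0.0382) and HSP90AB1 fell by 0.05 (adjusted p = 0.0483). Of 11 for turnover of D cyclins and p27, AMBRA1 rose by 0.23 (adjusted p = 0.0391) and SKP1 fell by 0.15 (adjusted p = 0.0217).

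In SW480 cells none of the genes of these 5 lists was called in edgeR, with 10 of 48 (20.8%) at an unadjusted p under 0.05, against 24.4% of all genes. The E2F target list had a median log2 fold of -0.19, against 0.00 over all genes, with 12 fitted values below 0 and 2 above. DESeq2 called CDC6 and MCM6 lower, among 443 genes called lower in all. The GC offset called 8 of the 14 lower, among 1272 genes called lower in all, while limma on log2(TPM + 1) called none. CDC6, which loads the replicative helicase, was the only gene of the 5 lists whose effect differed between the lines in edgeR, by 0.69 (adjusted p = 0.02). It was higher by 0.28 in HT29 and had a log2 fold of -0.40 in SW480 (adjusted p = 0.0737).

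Over the 8 libraries, the genes whose log2 CPM went most closely with CCND1 among 11797 compared were MID1 (Pearson's r 0.999), LTBP2 (0.999), KCTD11 (0.999), ADAM19 (0.998) and APLP2 (0.998). The 8 points share 4 groups and the 2 lines set most of the spread, so that this is a description. MID1 was at 13.03 and 9.05 CPM in HT29 with siCon and siPrdx2 and at 79.7 and 53.2 CPM in SW480, means of 2 libraries.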

How the data were processed

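Per the labels and the study's methods, messenger RNA libraries (TruSeq RNA kit v2, which does not mark strand) were sequenced as paired reads, and the authors aligned them to hg19 with MapSplice and estimated refGene abundance with RSEM. The deposited files give an expected count, TPM and FPKM value for each gene in each library, TPM scaled by the authors to a fixed total and FPKM by length and library total. The methods describe the HT29 libraries only. FPKM was used for an alternative set of shares.

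Expected counts were rounded and tested with edgeR 4.0.16 (glmQLFit, TMM) on R 4.3.3, keeping genes that reached 10 counts in 2 or more libraries, with Benjamini-Hochberg adjustment over all genes tested and a threshold of 0.05. Each line was fitted alone, the difference of the effects in 1 fit of all 8 libraries, and 95% intervals came from the fit. CPM levels use TMM over all 8 libraries. Alternatives were RLE scaling, no filter, DESeq2 1.42.0, limma 3.58.1 on log2 TPM with a pseudocount of 1 or 0.1, a loess GC offset (span 0.5), a replicate block, all 8 libraries in 1 fit, and each library left out. GC content was matched for 84.0% of symbols. Coordinates are GRCh37.

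The members and gene lists were chosen with earlier results of these data known. All 10 members and PRDX2 are named, and of each other list up to 4 genes past the threshold by smallest p, with the 5 genes most correlated with CCND1. CDKN2D, MCM6, and the FOXO and TCF genes below the threshold, were named after their values were seen. The fits were tested on simulated counts. No p-value was computed for CCND1 under knockdown. The files hold 0 columns of other samples.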

Additional observations from a re-analysis of the deposited data

Results flagged for a closer look

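The effect of siPrdx2 on 2 named genes differed between the lines in the edgeR fit of all 8 libraries. For PRDX2, the target, the log2 fold in HT29 minus that in SW480 was 0.84 ± 0.12 (SE, adjusted p = 0.0128), with both siPrdx2 libraries below both controls in each line. For CDC6 it was 0.69 (adjusted p = 0.02). None of the 8 genes tested among the D cyclins, CDK4/6, their inhibitors and RB1 passed this test, and CCND1 and CCND2 were not tested.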

How the results depend on the processing

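CDKN2B kept its call in HT29 in all alternatives. With 2 libraries per group, leaving one out leaves a group of 1, which is assumed to vary like the others. In HT29 the number of genes called was 2279, and 871 with DESeq2, 451 with limma on log2(TPM + 1) without a filter and 185 with all 8 libraries in 1 fit. The number of members called there went from 2 to 1 with DESeq2, with each limma fit and with all 8 libraries, and lay between 1 and 3 with a library left out (1 without siPrdx2 replicate 1, 3 without control replicate 1, where RB1 was added at adjusted p = 0.0424). In SW480 the 466 genes called became 205, 193 and 0 with limma on log2(TPM + 1), on log2(TPM + 0.1) and without a filter, 2471 with the GC offset (3 members: CCND3, CDK6 and CDKN2B) and 2415 with all 8 libraries (1, CDKN2B). With a library left out they lay between 87 and 7364, and members between 0 and 3. They numbered 3437 without control replicate 1 and 7364 without control replicate 2, in each case with 3 members (CCND3, CDK6 and CDKN2B, and CDKN1B, CDKN2B and RB1), and 105 and 87 without siPrdx2 replicate 1 and 2. For the difference between the lines, the 166 genes became 267 without a filter, 311 with DESeq2, 102, 48 and 78 in the limma fits and 1016 with the GC offset, which called 1 member, CCND3 (0.38, adjusted p = 0.00733). With a library left out the genes lay between 6 and 5237 (1371 without SW480 control replicate 1, which called CCND3, 5237 without replicate 2, which called CDKN1B and RB1, and 6 to 15 without any other library), and members between 0 and 2. The cause of these changes was not tested.

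Some folds turned that were not called as reported. CDKN2C in HT29 was 0.018 with limma on log2(TPM + 1), filtered or not, and 0.024 on log2(TPM + 0.1). CDK4 in SW480 was 0.036 in each limma fit. The limma medians over all genes ran from 0.043 to 0.064 in HT29 and from 0.056 to 0.092 in SW480. CDK6 in the difference was -0.026 and -0.025 with limma on these scales and -0.18 with the GC offset. With that offset CDKN1C in SW480 was -0.12, and CDKN1B between control libraries was -0.12. With a library left out, HT29 folds ran from -0.40 to 0.026 for CDKN1C and from -0.36 to 0.18 for CDKN2C, and SW480 folds from -0.24 to 0.013 for CCND3, from -0.12 to 0.0060 for CDK4, from -0.024 to 0.31 for CDKN1C and from -0.034 to 0.31 for CDKN2C. In the difference, CDK6 ran from -0.050 to 0.057 and CDKN2C from -0.49 to 0.047. Of these, CCND3 in SW480 was called at -0.24, without control replicate 1.

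Shares of expected counts in place of TPM, which leave transcript length in, gave CCND1 69.3%, 60.0%, 91.6% and 88.2% of D cyclins in HT29 siCon, HT29 siPrdx2, SW480 siCon and SW480 siPrdx2, CCND3 30.7%, 40.05%, 6.71% and 9.02%, and CCND2 1.73% and 2.73% in the SW480 groups.

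Deviations of same-numbered libraries correlated at 0.05 in HT29 and 0.08 in SW480. With 2 pairs in each line this cannot say whether the replicate number pairs the samples. With the number as a replicate block, 2889 genes were called in HT29 (2 members), 1727 in SW480 (49.7% higher) and 349 in the difference (no member in either). Between control libraries 10044 were called, with 8 members. These include CCND2, which passed the filter through SW480 alone.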

Other observations

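The FOXO factors activate CDKN1B among other genes and are held back by growth factor signalling. Of 3 on the list, 2 rose in HT29, where 7.76% of all genes were called higher. FOXO3 rose by 0.35 ± 0.05 (SE, edgeR, adjusted p = 5.9e-05) from a mean of 138 to 176 CPM, and FOXO4 by 0.25 ± 0.08 (adjusted p = 0.0496). In SW480 FOXO3 had a log2 fold of 0.44 (adjusted p = 0.0625), from 77.6 to 105 CPM, and was called higher with DESeq2. CDKN1B itself had 0.13 and -0.19 in the same fits. In control libraries all 3 FOXO genes were called lower in SW480 than in HT29, as were 31.8% of all genes.

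Of the TCF factors and β-catenin, 3 of 5 were tested in HT29 and none was called in edgeR, DESeq2 or limma, with 0 at an unadjusted p under 0.05 (30.2% of all genes). In SW480 cells 5 were tested and none called in edgeR, with 3 at an unadjusted p under 0.05 (24.4% of all genes). TCF7L1 had 0.57 (adjusted p = 0.104) and CTNNB1, which encodes β-catenin, -0.23 (adjusted p = 0.108). CTNNB1 was at a mean of 1689 CPM in SW480 and 253 CPM in HT29 control libraries, a log2 fold of 2.74, and LEF1 was at 80.7 CPM in SW480 and 0.053 CPM in HT29.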
